A study of Mus musculus with 2 samples.

Results

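The genes described here are 39 enzymes, carriers and regulators of the SREBP pathway, chosen by name as a module of sterol and fatty acid synthesis. They comprise 5 regulators, 16 genes of the sterol branch, 13 of the fatty acid branch and 5 of the glycerolipid branch. Of the 39 genes, 38 were matched to a locus in the deposited data, and 33 of these passed the minimum level set below, among 10635 genes and unnamed loci that did so in all. RNA was sequenced from mesenchymal stem/progenitor cells of bone marrow, taken from mice of the CD-1 strain that were 3 months old, 1 library from PPARg-deficient cells (PPAR KO) and 1 from PPARg-floxed cells (PPAR-f/f). Both cultures were grown in DMEM with fetal bovine serum. Floxed means that loxP sites for Cre recombinase flank part of a gene. The labels do not say which Cre or which exons were used, nor how many animals gave the cells. With 1 library per genotype there is no replicate check, no spread between cultures and no test for any difference below, and the genotype, the culture and the library cannot be told apart.

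Sterol regulatory element-binding proteins (SREBPs) are transcription factors that are made as inactive membrane proteins of the endoplasmic reticulum. When sterols are scarce, the escort protein Scap carries them to the Golgi, where proteases release the active fragment; when sterols are plentiful, Insig proteins hold Scap back. SREBP2 mainly drives the enzymes of cholesterol synthesis and SREBP1 those of fatty acid synthesis, and in fat cells the lipogenic enzymes also follow the differentiation program of the nuclear receptor PPARg.

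Pparg, the targeted gene, was at 1.39 FPKM in the PPARg-deficient library and 6.86 FPKM in the PPARg-floxed library, where FPKM is the number of sequenced fragments scaled by transcript length and by the library total. The deficient library had the greater summed depth. Coverage multiplied by transcript length came to 1728 megabases in deficient cells and 1383 megabases in floxed cells. At 1 FPKM or more were 10807 genes in deficient cells and 8835 in floxed cells. Fragment counts per gene were not given. FPKM was also higher across most genes in deficient cells, the median gene by 0.86 on the log2 scale or 1.81-fold, and Spp1 took 0.00631% of summed FPKM in deficient cells and 2.94% in floxed cells. Folds are therefore given as log2 of FPKM plus 1, deficient over floxed, relative to the median gene. A gene was called higher or lower at 2-fold or more on that scale. The plus 1 understates changes of genes at low levels.

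Most genes of the module had more FPKM in the PPARg-deficient library, but by about as much as genes in general. Relative to the median gene only Stard4, a cytosolic sterol carrier, rose by 2-fold or more, and Scd2, a fatty acid desaturase, Insig1, the retention factor, and Acat2, the thiolase that starts sterol synthesis, fell. These are 1 higher and 3 lower calls among the 33 kept genes, beside 10.2% of all kept genes called higher and 11.7% called lower. As deposited, FPKM was higher in deficient cells for 33 of the 38 matched genes and lower for 5, which were Insig1, Acat2, Scd1, Scd2 and Gpam. The median of the 33 genes was -0.11 with quartiles of -0.52 and 0.43, and over all kept genes the median is 0 by construction with quartiles of -0.46 and 0.50. In FPKM as deposited, 13 of the 33 genes were 2-fold higher and 0 were lower, beside 42.1% and 4.56% of all kept genes, so the count of higher genes lies near the background. The deposited bounds of the most abundant transcript, which describe the estimate within 1 library, did not overlap for 22 genes with the deficient library above and for 2, Acat2 and Scd2, with it below. Over all kept genes these shares were 63.7% and 8.74%, so the 22 are near the background as well. As a share of all summed FPKM the 38 matched genes made up 0.0445% in deficient cells and 0.0725% in floxed cells. Of the 33 genes, 4 passed the minimum of 1 FPKM through the deficient library alone, namely Fasn, Acaca, Acss2 and Fads2. The 3 lower calls ended with a pseudocount of 5 FPKM, at -0.69 for Insig1, -0.63 for Acat2 and -0.97 for Scd2, and in FPKM as deposited, but held in TPM without centring. Those of Insig1 (-0.88) and Acat2 (-0.69) also ended without a filter. Since these are bulk libraries, fewer cells of a type and less RNA per cell cannot be told apart.

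**Figure D1:**
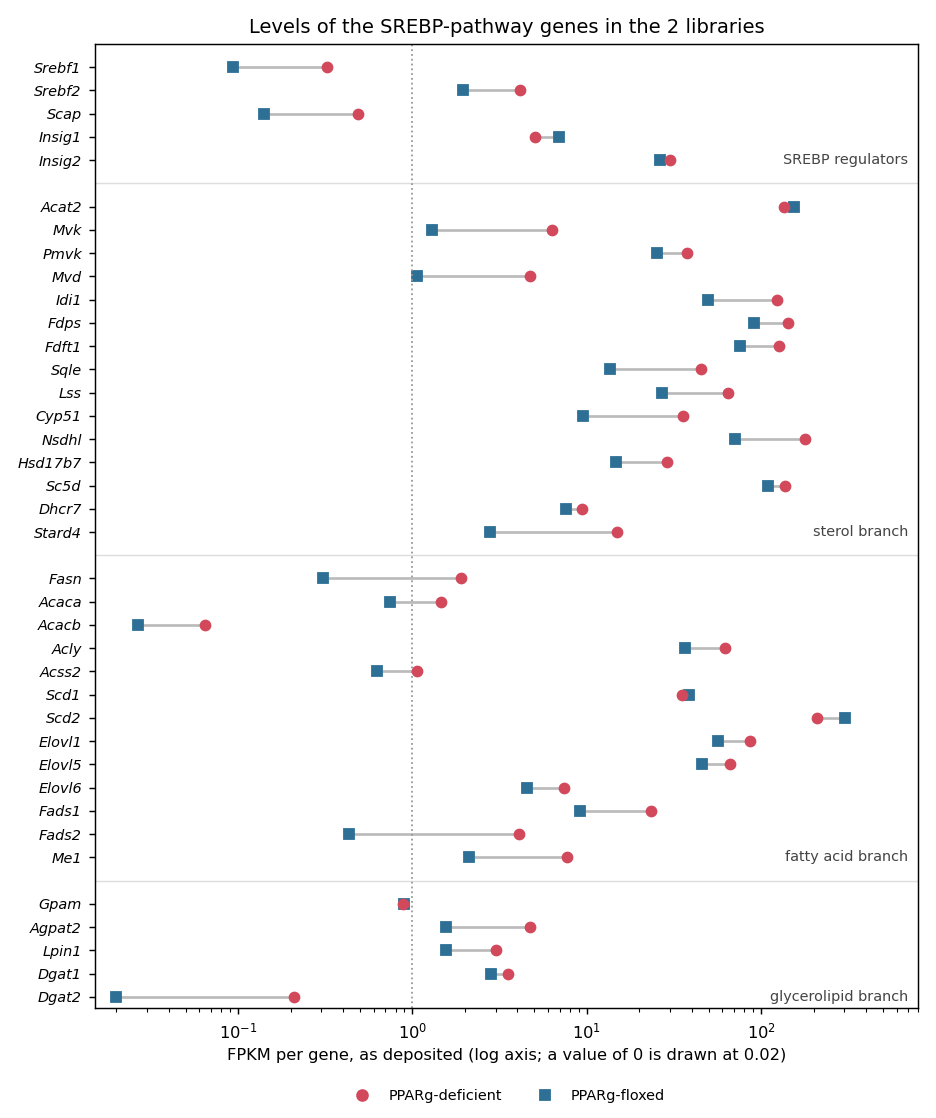
Deposited FPKM of the 38 matched genes on a log axis, with circles for the PPARg-deficient and squares for the PPARg-floxed library, grouped by branch; the dotted line marks 1 FPKM. Circles lie to the right of squares for 33 genes, and to the left for Insig1, Acat2, Scd1, Scd2 and Gpam.

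The transcription factors and their escort had low levels in both libraries, the retention factor Insig2 was the most abundant regulator, and Insig1 fell. Srebf2, which encodes SREBP2, was at 4.16 FPKM in deficient cells and 1.94 FPKM in floxed cells, a relative log2 fold of -0.05, close to that of the median gene. Most of that came from a transcript of 4 exons and 1994 nt, at 2.93 FPKM in deficient cells against 1.397 FPKM in floxed cells. The transcript of 19 exons was at 0.44 FPKM with bounds of 0.21 to 0.66 in deficient cells and at 0.06 FPKM with bounds of 0 to 0.15 in floxed cells. Srebf2 signal was thus mostly on a short transcript in both libraries. Srebf1, which encodes SREBP1, had 0.33 FPKM in deficient cells against 0.09 FPKM in floxed cells. Scap had 0.49 FPKM in deficient cells and 0.14 FPKM in floxed cells. Both stayed under the minimum of 1 FPKM and have overlapping bounds, so no fold is read for them.

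Insig1, itself a well-known SREBP target, lies on chromosome 5 from 28397952 to 28405202 (mm9, plus strand) with 1 transcript of 5 exons. It was at 5.05 FPKM in deficient cells, with deposited bounds of 4.11 to 5.99, and at 6.97 FPKM in floxed cells, with bounds of 5.85 to 8.10. The relative log2 fold was -1.26, but the bounds overlap and the fold as deposited was -0.40. Insig2 was several times more abundant, at 30.0 FPKM in deficient cells against 26.2 FPKM in floxed cells, with a relative log2 fold of -0.67. Its transcript of 2435 nt was at 24.99 FPKM, with bounds of 22.6 to 27.3, in deficient cells and at 18.8 FPKM, with bounds of 16.6 to 20.96, in floxed cells. A second of 2411 nt, unlike it, was at 1.05 FPKM in deficient cells against 3.48 FPKM in floxed cells.

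Because the pathway is defined by DNA elements, the promoter windows of RefSeq (GRCm38.p6, 250 bases before to 50 after each annotated start) were searched on both strands. The letters searched were the sterol regulatory element TCACNCCAC with N for any base, its core CACCCCAC, which overlaps the element where N is C, the E-box CACGTG, the NF-Y box CCAAT and the GC box GGGCGG. A window was given for 30 of the 39 genes. The Insig1 window, chosen for show after the values were seen, is chr5:28071162-28071461 on the plus strand, with an NF-Y box starting at -216 (ATTGG, its reverse) and an E-box at -101 in capitals, counted from the start site.
Insig1: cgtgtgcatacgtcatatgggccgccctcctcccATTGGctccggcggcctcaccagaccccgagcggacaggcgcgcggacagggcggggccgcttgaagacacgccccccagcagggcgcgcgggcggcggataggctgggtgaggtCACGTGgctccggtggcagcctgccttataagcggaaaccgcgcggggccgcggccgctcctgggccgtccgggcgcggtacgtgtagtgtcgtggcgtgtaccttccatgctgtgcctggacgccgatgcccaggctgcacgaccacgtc

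In the sterol branch, most genes had more FPKM in deficient cells, and Stard4, Cyp51, Mvk and Sqle had the highest folds relative to the median gene. Among the 15 kept genes, 14 had higher FPKM in deficient cells and 9 lay above the median gene, with a median relative log2 fold of 0.37 and quartiles of -0.25 and 0.71. Only Stard4 was called higher and only Acat2 lower, beside 10.2% and 11.7% of all kept genes. As deposited, 8 were 2-fold higher and 0 lower, beside 42.1% and 4.56% of all kept genes. Summed over the branch, FPKM was 1092 in deficient cells and 655 in floxed cells, a smaller rise than the 1.81-fold of the median gene.

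Acat2, the cytosolic acetoacetyl-CoA thiolase that opens the pathway, was the single sterol gene with less FPKM in deficient cells. It had 135 FPKM with bounds of 129 to 140 in deficient cells, and 155 FPKM with bounds of 149 to 161 in floxed cells. These bounds are apart, and the relative log2 fold was -1.06, just past the 2-fold limit. Its locus on chromosome 17 (13135908 to 13153591, mm9, minus strand) shares 33.6% of its exonic bases with Tcp1 on the opposite strand. Tcp1 had 169 FPKM in deficient cells against 105 FPKM in floxed cells, and the handling of strand is not given in the sources used here, so reads of Acat2 and Tcp1 cannot be told apart there. Hmgcs1, the synthase of the next step, found no match on its chromosome. All 10 of its intron lengths matched a pair of loci on the unplaced contig 13_random (114710 to 132325 and 308620 to 326235, minus strand), and both are listed at 0 in both libraries; a 0 in these files can be a failed estimate, and no level is given for Hmgcs1.

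The Acat2 and Hmgcs1 windows are shown because they hold letters of the element that gives the pathway its name, Acat2 the core alone and Hmgcs1 the full element. The Acat2 window is chr17:12960676-12960975 on the minus strand, with the core at -181 in capitals. The Hmgcs1 window is chr13:119690101-119690400 on the plus strand, with the full element at -137 in capitals, and it also holds the NF-Y box at 4 places (-237, -176, -45 and 11).
Acat2: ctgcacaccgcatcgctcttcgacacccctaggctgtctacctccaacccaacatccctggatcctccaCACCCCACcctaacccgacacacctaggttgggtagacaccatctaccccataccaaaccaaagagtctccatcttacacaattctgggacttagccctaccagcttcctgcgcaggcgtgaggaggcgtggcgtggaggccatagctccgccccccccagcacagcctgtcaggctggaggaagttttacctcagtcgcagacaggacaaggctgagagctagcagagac
Hmgcs1: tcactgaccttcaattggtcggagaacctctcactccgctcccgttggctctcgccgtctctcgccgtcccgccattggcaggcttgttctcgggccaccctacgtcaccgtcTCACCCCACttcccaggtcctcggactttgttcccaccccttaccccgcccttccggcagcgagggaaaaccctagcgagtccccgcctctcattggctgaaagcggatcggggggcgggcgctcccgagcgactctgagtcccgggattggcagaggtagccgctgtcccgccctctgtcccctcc

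The next steps make and use mevalonate, which is phosphorylated and decarboxylated to isoprenoid units. Mvk, mevalonate kinase, was at 6.34 FPKM in deficient cells against 1.29 FPKM in floxed cells, a relative log2 fold of 0.82. Pmvk, the following kinase, was at 37.8 FPKM in deficient cells and 25.3 FPKM in floxed cells, with a relative log2 fold of -0.30. Mvd, the decarboxylase, had 4.74 FPKM in deficient cells against 1.06 FPKM in floxed cells. These neighbouring steps thus differ in both level and fold, with Pmvk the most abundant in both libraries. The fold of Mvk was -0.17 with the most abundant transcript alone and -0.20 with matched transcripts only, so its direction depends on which transcripts are counted. The larger part of Mvk signal in deficient cells came from a transcript of 12 exons at 3.62 FPKM that had an upper bound of 0.15 FPKM in floxed cells.

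Idi1, the isomerase of the isoprenoid units, had 123 FPKM in deficient cells, with bounds of 119 to 128, and 49.8 FPKM in floxed cells, with bounds of 46.9 to 52.7. Its relative log2 fold was 0.43, so the wide gap as deposited (1.29) shrinks below the call once the median gene is taken into account. Fdps, farnesyl diphosphate synthase, had 143 FPKM in deficient cells against 91.2 FPKM in floxed cells, with a relative log2 fold of -0.21. Its 5 transcripts did not share 1 direction. The transcript of 1245 nt was at 56.4 FPKM (bounds 50.4 to 62.4) in deficient cells and 66.8 FPKM (60.9 to 72.6) in floxed cells. Another of 1097 nt was at 53.1 FPKM in deficient cells against 22.4 FPKM in floxed cells, and one of 1257 nt at 21.6 FPKM in deficient cells had an upper bound of 0.21 FPKM in floxed cells. Transcripts of 1 gene share most exons, so this division is an estimate within each library.

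Fdft1, squalene synthase, commits the pathway to sterols. It had 127 FPKM in deficient cells against 75.4 FPKM in floxed cells, a relative log2 fold of -0.11. On the opposite strand Ctsb covers 50.8% of its exonic bases and was more abundant, at 425 FPKM in deficient cells and 1099 FPKM in floxed cells, so reads of Fdft1 and Ctsb cannot be told apart there.

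Squalene is next oxidised, closed to lanosterol and demethylated. Sqle, the squalene epoxidase, was at 45.1 FPKM (bounds 42.4 to 47.9) in deficient cells against 13.6 FPKM (12.0 to 15.1) in floxed cells, with a relative log2 fold of 0.80. Lss, lanosterol synthase, was at 64.3 FPKM in deficient cells against 26.9 FPKM in floxed cells, with a relative log2 fold of 0.37. Cyp51, the lanosterol demethylase, was at 35.6 FPKM (bounds 33.7 to 37.5) in deficient cells and 9.52 FPKM (8.51 to 10.5) in floxed cells, with a relative log2 fold of 0.94. For all 3 genes the bounds are far apart, and none passes 2-fold relative to the median gene, Cyp51 being the nearest below it.

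The windows of Cyp51 and Idi1, chosen for show after their values were seen, are chr5:4104648-4104947 on the minus strand and chr13:8885356-8885655 on the plus strand. Capitals mark the NF-Y box, CCAAT or its reverse ATTGG, at -29 in Cyp51 and at -45 and -14 in Idi1. Neither holds TCACNCCAC or CACCCCAC, the only letters searched for the sterol regulatory element. Other spellings of the element were not searched, so its absence cannot be read from this.
Cyp51: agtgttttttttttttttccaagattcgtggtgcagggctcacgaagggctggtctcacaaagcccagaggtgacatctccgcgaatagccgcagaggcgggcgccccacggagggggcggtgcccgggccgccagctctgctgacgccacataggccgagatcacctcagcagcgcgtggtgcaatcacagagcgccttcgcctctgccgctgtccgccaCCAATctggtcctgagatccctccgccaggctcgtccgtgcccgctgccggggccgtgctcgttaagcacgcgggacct
Idi1: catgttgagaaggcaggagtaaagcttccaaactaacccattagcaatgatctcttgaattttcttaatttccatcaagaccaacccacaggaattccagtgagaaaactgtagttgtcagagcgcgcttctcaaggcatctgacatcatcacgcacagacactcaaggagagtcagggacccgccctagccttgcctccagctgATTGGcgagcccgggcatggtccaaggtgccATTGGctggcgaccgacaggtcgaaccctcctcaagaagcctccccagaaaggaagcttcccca

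The later ring modifications varied. Nsdhl, a dehydrogenase of C4 demethylation, was the most abundant of the 15 sterol members in deficient cells, at 179 FPKM there and 71.1 FPKM in floxed cells, with a relative log2 fold of 0.46. Its partner Hsd17b7, the reductase of that cycle, had 28.7 FPKM in deficient cells against 14.8 FPKM in floxed cells, a relative log2 fold of 0.05. Sc5d, the sterol desaturase, had 138 FPKM in deficient cells against 109 FPKM in floxed cells, with a relative log2 fold of -0.53. The Sc5d transcript of 2249 nt was at 128 FPKM in deficient cells and 87.9 FPKM in floxed cells, while one of 2180 nt was at 9.68 FPKM in deficient cells against 21.3 FPKM in floxed cells. Dhcr7, the reductase of the last step to cholesterol, had 9.39 FPKM in deficient cells against 7.58 FPKM in floxed cells, a relative log2 fold of -0.58. Relative to the median gene, Nsdhl thus lay above and Sc5d and Dhcr7 below, Dhcr7 turning to 0.08 with matched transcripts only.

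Stard4, which moves cholesterol between membranes, was the only member called higher. Fads2 had a larger fold than Stard4 with a pseudocount of 0.1 FPKM (1.84 against 1.25) and with upper-quartile scaling (1.23 against 1.15). Stard4 had 15.0 FPKM in deficient cells and 2.79 FPKM in floxed cells, a relative log2 fold of 1.22 and 2.08 as deposited. The transcript of 5262 nt was at 6.94 FPKM (bounds 5.52 to 8.35) in deficient cells against 2.79 FPKM (2.30 to 3.29) in floxed cells. A transcript of 2985 nt, with the same number of exons and an earlier end, was also at 6.94 FPKM (5.66 to 8.22) in deficient cells but at 0 with an upper bound of 0.08 FPKM in floxed cells. The call rests on that shorter transcript, since with the most abundant transcript alone the relative log2 fold was 0.19. It also ended with a pseudocount of 5 FPKM (0.92) and in TPM without centring (0.91).

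**Figure D2:**
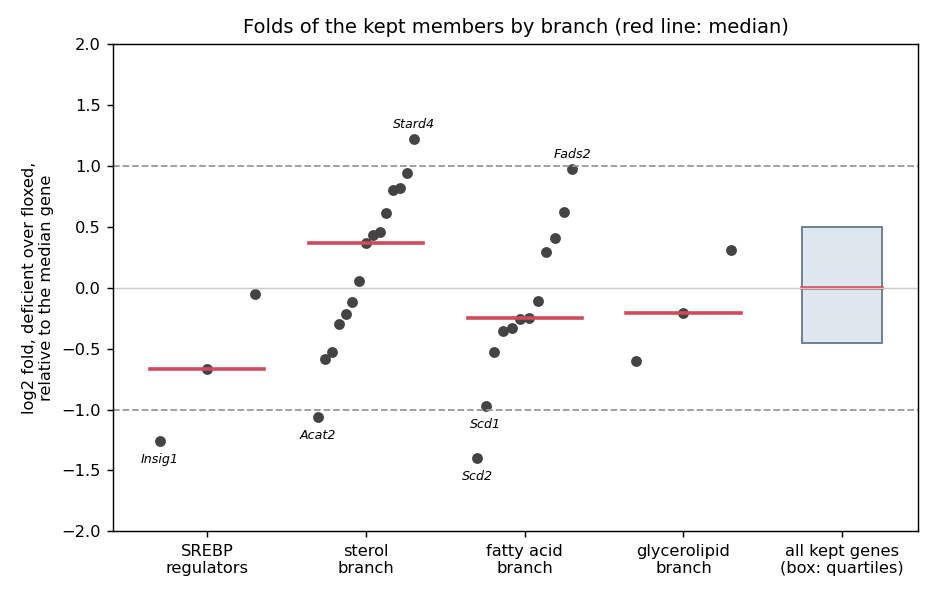
Relative log2 fold, deficient over floxed, of the 33 kept genes by branch; red lines are medians, dashed lines mark 2-fold and the box gives the quartiles of all 10635 kept genes. The sterol branch has its median at 0.37 and the fatty acid branch at -0.25, and only Stard4 lies above and Scd2, Insig1 and Acat2 below the dashed lines.

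The fatty acid branch mostly had more FPKM in deficient cells but mostly lay below the median gene, with Scd2 lowest and Fads2 highest. Among its 12 kept genes, 10 had higher FPKM in deficient cells, but 4 lay above the median gene, and the median relative log2 fold was -0.25 with quartiles of -0.40 and 0.32. Scd2 alone was called, as lower, beside 10.2% of all kept genes called higher and 11.7% lower. As deposited, 4 were 2-fold higher and 0 lower, beside 42.1% and 4.56% of all kept genes. The summed FPKM was nearly equal, 507 in deficient cells against 500 in floxed cells, and Scd2 was the most abundant gene of the branch in both. The 12 adipocyte markers summed to 16.4 FPKM in deficient cells and 205 FPKM in floxed cells, of which Lpl alone was 2.78 FPKM in deficient cells and 176 FPKM in floxed cells. Only 3 of the 12 passed the minimum, Plin4 was higher in deficient cells (0.73 FPKM against 0.27 FPKM in floxed cells), and the part of these markers in the values of the branch was not tested.

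The first enzymes supply acetyl-CoA and reducing power. Acly, which splits citrate to acetyl-CoA, was at 62.1 FPKM in deficient cells and 36.5 FPKM in floxed cells, with a relative log2 fold of -0.11. Acss2, which makes it from acetate, was far lower, at 1.06 FPKM in deficient cells against 0.63 FPKM in floxed cells. Me1, the malic enzyme that yields NADPH, was at 7.67 FPKM in deficient cells against 2.11 FPKM in floxed cells, with a relative log2 fold of 0.62. Acly was thus the more abundant of the acetyl-CoA enzymes in both libraries, and Me1 the highest in fold.

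The enzymes that build the chain were low. Fasn, fatty acid synthase, was at 1.899 FPKM in deficient cells and 0.31 FPKM in floxed cells. Much of that came from a transcript of 2 exons at 0.996 FPKM in deficient cells against 0.17 FPKM in floxed cells. Acaca, acetyl-CoA carboxylase, had 1.47 FPKM in deficient cells against 0.74 FPKM in floxed cells. Its paralog Acacb stayed under the minimum, at 0.06 FPKM in deficient cells and 0.03 FPKM in floxed cells. At these levels the added 1 FPKM compresses the folds: Fasn had a relative log2 fold of 0.29, and 1.16 with a pseudocount of 0.1 FPKM.

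Elongases and desaturases, which act on finished chains, carried most of the signal. Elovl1 was at 86.0 FPKM in deficient cells against 56.3 FPKM in floxed cells, Elovl5 at 66.7 FPKM in deficient cells against 45.9 FPKM in floxed cells, and Elovl6 at 7.44 FPKM in deficient cells and 4.53 FPKM in floxed cells. Their relative log2 folds were -0.26, -0.33 and -0.25, alike and below the median gene, although above it without a filter (0.12, 0.05 and 0.13). Fads1, a desaturase of polyunsaturated fatty acids, had 23.3 FPKM in deficient cells against 9.12 FPKM in floxed cells, a relative log2 fold of 0.40. Fads2, its partner, had 4.10 FPKM (bounds 3.24 to 4.95) in deficient cells against 0.43 FPKM (0.13 to 0.73) in floxed cells, a relative log2 fold of 0.97. Fads2 lay just short of the call, and an unnamed locus on the opposite strand, at 3.78 FPKM in deficient cells and 0.83 FPKM in floxed cells, covers 49.9% of its exonic bases, so the reads cannot be told apart there.

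The stearoyl-CoA desaturases, which put the double bond into saturated chains, are a family of closely related neighbours on chromosome 19, so the division of reads between them is uncertain. Scd2 (44277778 to 44381355, mm9, plus strand) had 209 FPKM in deficient cells against 305 FPKM in floxed cells, and with a relative log2 fold of -1.399 it was the largest fall among the kept members. Its transcript with the annotated introns was at 199 FPKM (bounds 195 to 203) in deficient cells against 254 FPKM (249 to 259) in floxed cells. The locus is merged with the neighbouring Scd3, whose 1 matched transcript was at 0 in both libraries, and the sums cover the whole merged locus. A pair of transcripts that span it from 44277778 to 44381355 were at 6.63 and 3.86 FPKM in deficient cells and at 40.4 and 10.2 FPKM in floxed cells. Both kinds were therefore lower in deficient cells as deposited, by a log2 fold of -0.54 in sum, which is short of 2-fold. The fall passed 2-fold relative to the median gene (-1.399), and also in TPM without centring (-1.69) and with upper-quartile scaling (-1.62).

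Scd1 (44468904 to 44482345, mm9, minus strand) differed more in form than in sum. In sum it was at 35.4 FPKM in deficient cells and 38.4 FPKM in floxed cells, with a relative log2 fold of -0.97, just short of the call. The annotated transcript of 6 exons was at 29.1 FPKM (bounds 27.4 to 30.9) in deficient cells against 9.12 FPKM (7.77 to 10.5) in floxed cells. The other, of 7 exons, was at 6.22 FPKM (5.19 to 7.25) in deficient cells against 29.3 FPKM (27.4 to 31.1) in floxed cells. Each library thus had a different leading Scd1 transcript, with bounds apart in opposite directions. The relative log2 fold of Scd1 was accordingly 0.70 with the most abundant transcript alone and 0.67 with matched transcripts only.

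**Figure D3:**
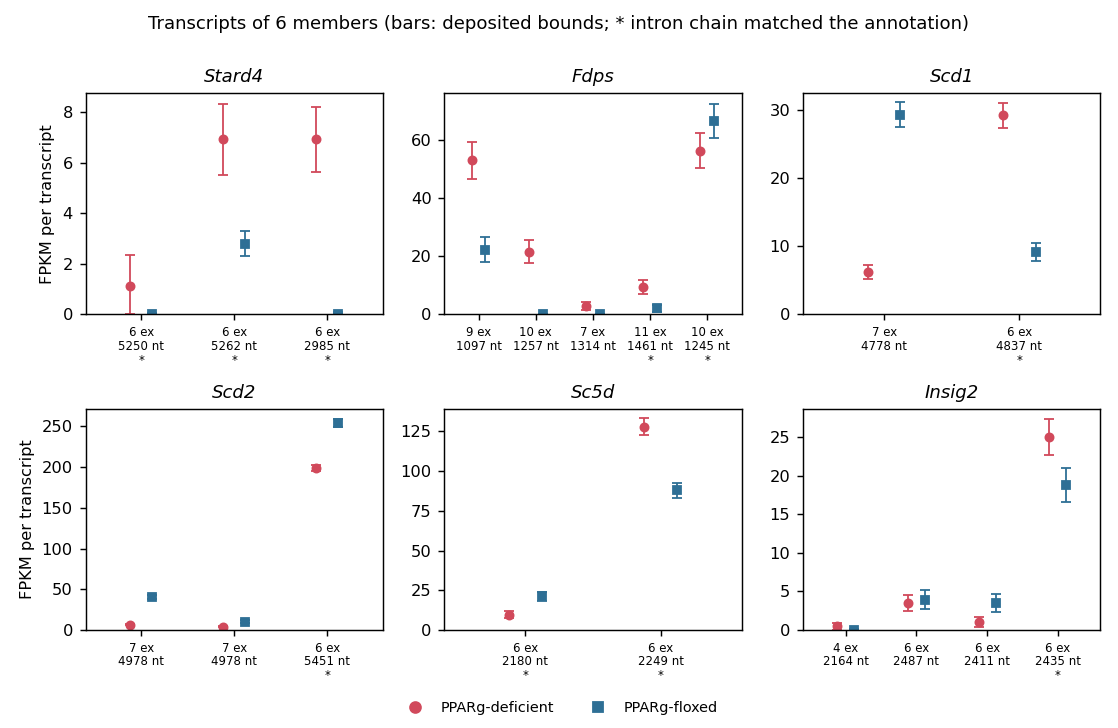
FPKM per transcript (vertical axis) of 6 genes, circles for the PPARg-deficient and squares for the PPARg-floxed library, with the deposited bounds as bars; labels give exons and length, and an asterisk marks introns that matched the annotation. In the Scd1 panel the deficient library is the lower for the transcript of 7 exons and the higher for that of 6, and in the Stard4 panel the transcript of 2985 nt is at 6.94 FPKM in deficient cells and 0 in floxed cells.

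The glycerolipid branch, which joins fatty acids to glycerol, was the least abundant, with a summed FPKM of 12.4 in deficient cells against 6.82 in floxed cells. Among 3 kept genes, 0 were called relative to the median gene, and their median relative log2 fold was -0.21. As deposited, Agpat2 was 2-fold higher, as were 42.1% of all kept genes. Agpat2, which makes phosphatidic acid, was at 4.72 FPKM in deficient cells against 1.55 FPKM in floxed cells. Lpin1, the phosphatase that turns it to diacylglycerol, was at 3.02 FPKM in deficient cells and 1.56 FPKM in floxed cells. Dgat1, which completes triglyceride, was at 3.54 FPKM in deficient cells against 2.81 FPKM in floxed cells. The bounds of the leading transcript overlap for each of these 3 genes. Gpam, the mitochondrial enzyme that first acylates glycerol phosphate, was nearly equal at 0.89 FPKM in deficient cells against 0.90 FPKM in floxed cells, and Dgat2 was at 0.21 FPKM in deficient cells and listed at 0 in floxed cells; both stayed under the minimum. The Gpam window, chr19:55127189-55127488 on the minus strand, is shown as the third that holds the core, at -180 in capitals.
Gpam: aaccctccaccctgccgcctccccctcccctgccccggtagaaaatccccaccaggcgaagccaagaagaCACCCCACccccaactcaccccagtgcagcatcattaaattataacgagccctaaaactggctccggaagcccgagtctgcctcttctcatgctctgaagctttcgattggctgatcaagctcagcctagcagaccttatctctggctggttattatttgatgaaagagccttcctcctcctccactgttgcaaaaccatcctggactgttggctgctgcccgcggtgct

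Across the module, the letters of the full sterol regulatory element were in 1 of 30 genes with a window, Hmgcs1, beside 1.44% of 27025 genes with a window and 1.38% of 6872 kept ones. The core was in 3 of 30 (Acat2, Gpam and Hmgcs1), beside 3.30% of all and 3.64% of kept genes. Of these 3 genes Acat2 alone has a fold, since Gpam stayed under the minimum and Hmgcs1 has no level. Stard4, Scd1, Scd2, Fads1, Fdps, Fdft1, Sqle, Dgat1 and Dgat2 are without a window and are not covered by these shares. The E-box was in 6 of 30, Insig1, Scap, Hsd17b7, Sc5d, Dhcr7 and Elovl5, beside 8.09% of all and 12.6% of kept genes. The NF-Y box, the site of a factor that works with SREBPs, was in 23 of 30, beside 41.1% of all and 44.3% of kept genes. The GC box was also in 23 of 30, against 38.2% of all genes but 69.9% of kept ones. A match of letters is a description and not a bound site. Elements outside the 300-base window and other spellings of the sterol regulatory element were not searched.

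**Figure D4:**
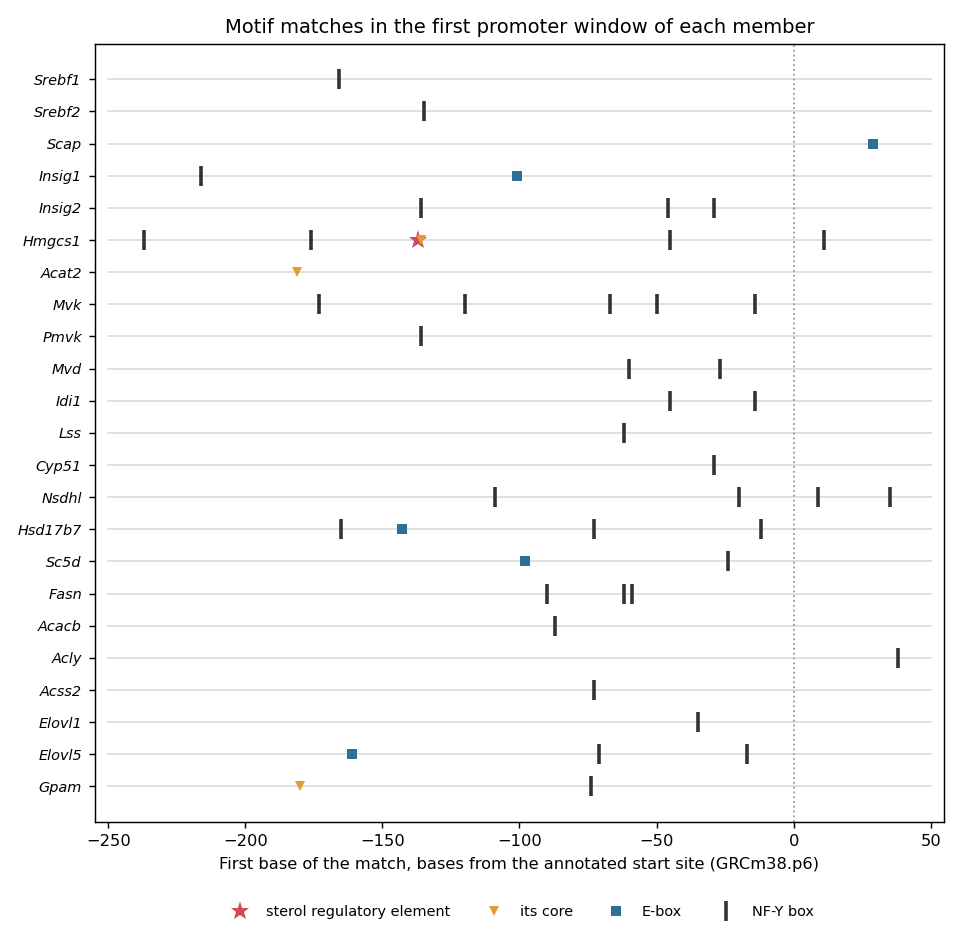
Position of each motif match (first base, in bases from the annotated start site) in the first promoter window of the 23 genes with a match to the sterol regulatory element, its core, the E-box or the NF-Y box. The full element appears once, in Hmgcs1 at -137, and NF-Y boxes are spread over most genes.

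The sterol branch lay 0.62 above the fatty acid and glycerolipid branches combined, 0.37 against -0.25 in median relative log2 fold, over 15 kept genes each. The sign of this difference held under the alternatives tried, from 0.12 with the most abundant transcript alone to 0.66 without a filter. The sterol median itself was -0.0034 when only genes of at least 5 FPKM were kept and -0.17 with the most abundant transcript alone. The quartiles of the groups overlap, the libraries number 1 each, and no test of the difference was possible. By level, among genes of the highest levels (mean log2 of FPKM plus 1 of at least 6) the 8 members had a median of -0.24 and all 1155 genes -0.15, and among the lowest (under 2) the 8 members had 0.12 and all 4322 genes -0.14. Between 2 and 4 the 8 members had 0.08 and all 3438 genes 0.16, and between 4 and 6 the 9 members had -0.11 and all 1720 genes 0.24, so the members' median was the lower in 3 of the 4 ranges.

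Few other genes of sterol synthesis, processing and transport passed 2-fold, while 10.2% of all kept genes were called higher and 11.7% lower. Among other genes of sterol and isoprenoid synthesis, 12 of 14 were kept, 0 were called in either direction relative to the median gene and the median was -0.18. Msmo1, a sterol methyl oxidase, was the most abundant, at 384 FPKM in deficient cells against 293 FPKM in floxed cells (a relative log2 fold of -0.47, and likewise in parentheses for the genes that follow). Ebp, the sterol isomerase, had 132 FPKM in deficient cells against 99.2 FPKM in floxed cells (-0.45), and Acat1, the mitochondrial thiolase, 85.2 FPKM in deficient cells and 57.3 FPKM in floxed cells (-0.30).

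The machinery that carries, cuts and degrades SREBPs was called in 0 of 17 kept genes of 20, with a median of -0.29. Of all kept genes, 10.2% were called higher and 11.7% lower. Mbtps1, the first of the Golgi proteases, was at 9.74 FPKM in deficient cells against 9.25 FPKM in floxed cells (-0.79). Sec23a and Sec23b, coat proteins of the vesicles that leave the endoplasmic reticulum, had relative log2 folds of -0.55 and -0.75. Sar1a, the small GTPase of that coat, stood apart at 90.6 FPKM in deficient cells against 28.0 FPKM in floxed cells (0.80).

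Of 20 genes of sterol uptake, transport, storage and the LXR receptors, 11 were kept, with 0 higher and 2 lower and a median of -0.29. The shares over all kept genes were 10.2% higher and 11.7% lower. Soat1, which esterifies cholesterol for storage, fell, at 23.8 FPKM in deficient cells against 43.2 FPKM in floxed cells (-1.70). The other that fell was Nr1h3, the LXR alpha receptor, at 0.47 FPKM in deficient cells against 2.83 FPKM in floxed cells. Nr1h2, the LXR beta receptor, went the other way without a call. It was at 2.19 FPKM in deficient cells against 0.19 FPKM in floxed cells (0.56). Npc2, a lysosomal sterol carrier, had 369 FPKM in deficient cells and 392 FPKM in floxed cells (-0.95). The hydrolases Nceh1 and Lipa, which release stored cholesterol, had relative log2 folds of 0.43 and 0.30.

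Among other fatty acid genes, 20 of 31 were kept, with 3 higher, 3 lower and a median of 0.25. The shares over all kept genes were 10.2% higher and 11.7% lower, so both counts lie near the background. Acsl5, which activates fatty acids, rose, at 14.8 FPKM in deficient cells against 0.82 FPKM in floxed cells (2.26). Fads3, the relative of Fads1 and Fads2, rose, at 14.0 FPKM in deficient cells against 2.13 FPKM in floxed cells (1.404). Hacd3, a dehydratase of chain elongation, rose, at 13.3 FPKM in deficient cells and 2.70 FPKM in floxed cells (1.09). Tecr, the reductase of the same cycle, fell, at 337 FPKM in deficient cells against 578 FPKM in floxed cells (-1.64), so enzymes of 1 elongation cycle moved in opposite directions. The other lower calls were Acsl1 (-1.07) and Acsl3 (-1.04). Among other genes of glycerolipid and phospholipid synthesis, 0 of 15 kept of 21 were called, with a median of -0.05. Gpat4 and Bscl2, of triglyceride assembly and lipid droplets, had relative log2 folds of -0.41 and -0.48, and Pcyt1a and Cept1, of phosphatidylcholine synthesis, 0.63 and 0.49.

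**Figure D5:**
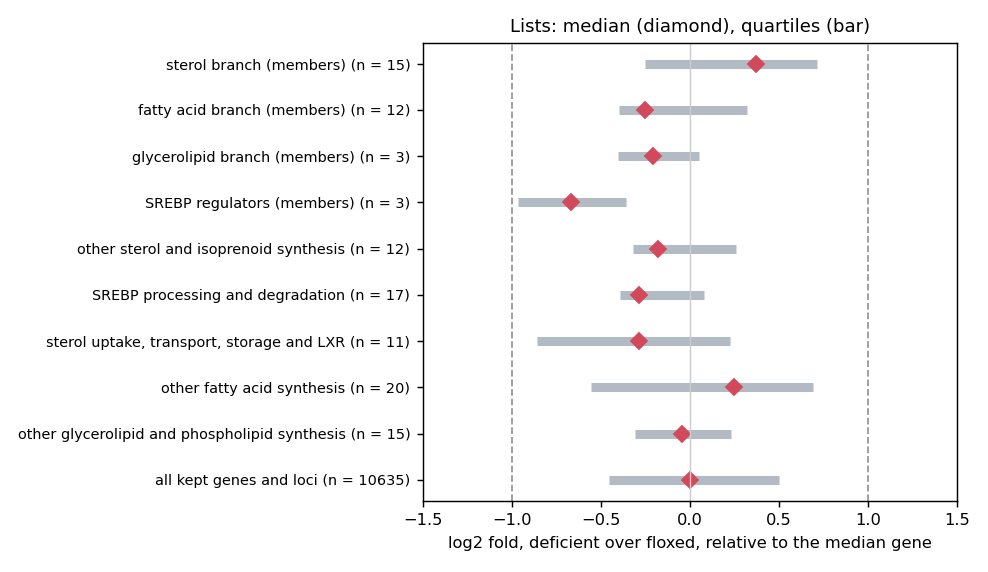
Median (diamond) and quartiles (bar) of the relative log2 fold, deficient over floxed, for each branch and each list of other lipid genes, with the number of kept genes; dashed lines mark 2-fold. All medians lie within 0.67 of the median gene.

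Markers of the labelled and of other cell types were read in the same libraries. Mesenchymal stromal markers were kept for 11 of 14 genes and summed to 2274 FPKM in deficient cells against 1160 FPKM in floxed cells, with Eng, Thy1 and Lepr under 0.5 FPKM in both. On the relative scale Vim and Cxcl12 were 2-fold higher and Nt5e was lower, with a median of -0.19 over the 11. Of all kept genes, 10.2% were higher and 11.7% lower on that scale. Adipocyte markers were kept for 3 of 12 genes, all 3 lower on that scale, and 2 lower as deposited, where 4.56% of all kept genes were. The 3 were Lpl, the lipoprotein lipase, given above, Fabp4 and Adipoq. Fabp4 was at 12.7 FPKM in deficient cells against 17.6 FPKM in floxed cells, and Adipoq at 0.10 FPKM in deficient cells against 9.87 FPKM in floxed cells. Of the 12, 7 were listed at 0 in deficient cells and 4 in floxed cells, and Plin1, Lep, Retn and Pck1 were at 0 in both. Osteoblast markers were kept for 4 of 7 genes, all 4 lower relative to the median gene and 3 lower as deposited. Runx2 was at 4.87 FPKM in deficient cells against 6.96 FPKM in floxed cells. Osteoblast markers summed to 239 FPKM in deficient cells against 48599 FPKM in floxed cells, nearly all of it Spp1. Leukocyte markers without Lyz2 summed to 14.8 FPKM in deficient cells against 6.08 FPKM in floxed cells. Most of that was Cd14, at 12.5 FPKM in deficient cells against 4.52 FPKM in floxed cells, while Ptprc, Adgre1 and Itgam were at 0 in both. Lyz2 sits in a locus merged with Lyz1 and was left out of that sum. Its transcript was at 19.5 FPKM in deficient cells and 0.26 FPKM in floxed cells. Endothelial markers summed to 0.26 FPKM in deficient cells and 0.02 FPKM in floxed cells. The part of these differences in cell make-up in the folds of the module was not tested.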

How the data were processed

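The 2 libraries were grouped by their genotype label. The authors deposited FPKM per transcript with lower and upper bounds, inside a text field of a transcript file, relative to each library's total. Per the submitters' processing notes, TopHat2 2.0.5, Cufflinks 2.0.2, Cuffdiff 2.0.2 and mm9 were used, with no role or order stated. Annotation, filters and strand handling: not given in the sources used here. The files list 45543 transcripts in 25707 loci without gene symbols. Loci were named here by matching ordered intron and internal exon lengths to GENCODE mouse M21 on the same chromosome and strand: 17817 by a whole chain, 361 by a run of 3 lengths and 996 by a single intron. Whole chains were also tried against a wrong chromosome, and 0 of 36924 matched. Naming by a run of 3 lengths or a single intron was not checked in this way, nor were similar neighbours on the same chromosome. Coordinates were not converted. FPKM was summed per gene, genes of at least 1 FPKM in 1 library and 300 nt were kept, and folds were log2 of FPKM plus 1, centred on the median gene.

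The members and lists were chosen with earlier results of these data known. All 39 members are named. From each other list the rule takes up to 4 genes of at least 5 FPKM with the largest folds. Nr1h2, Nr1h3, Acsl1, Acsl3, Spp1 and the markers were named after their values were seen. Promoter windows were printed for members that hold the sterol regulatory element or its core, and for Insig1, Cyp51 and Idi1 after their values were seen. Some genes that the rule takes are not reported here. The steps were tested on simulated data. Other settings tried were a pseudocount of 0.1 or 5 FPKM, a minimum of 5 FPKM or none, no centring, upper-quartile scaling, TPM, the most abundant transcript, matched transcripts only, all lengths, and calls at 1.5- and 4-fold. Python 3.11.15 with numpy 2.4.6 and matplotlib 3.10.9 was used.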

Additional observations from a re-analysis of the deposited data

How the results depend on the processing

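With 1 library per genotype, leaving out a replicate was not possible, and no paired analysis was possible because each group has 1 library. Fragment counts per gene were not given, and low genes depend most on the pseudocount and the filter. Of 316 gene values over the alternatives, 279 kept their side of 2-fold, 26 newly passed it, 11 no longer did and 0 called values changed sign. The 26 include 4 each for Fads2 and Scd1 and 3 each for Cyp51 and Mvk. The uncalled folds of Mvk, Scd1, Dhcr7, Acly and Hsd17b7 turned with the transcripts counted. With the most abundant transcript alone, Acly was at 0.19 and Hsd17b7 at -0.19. As deposited, which adds the shift of 0.86 (42.1% and 4.56% of all kept genes called higher and lower), 13 members were higher and 0 lower with a median of 0.75; the sterol branch had 8 higher, 0 lower and a median of 1.23, and the fatty acid and glycerolipid branches 5 higher, 0 lower and 0.61. In each setting the share of all kept genes called higher and lower follows in parentheses. A pseudocount of 0.1 FPKM (15.9% and 16.0%) gave 4 higher members, 2 of them sterol and 2 in the other branches, which had 2 lower, and a sterol median of 0.12. A pseudocount of 5 FPKM (8.50% and 4.01%) gave 0 lower members in any branch and a median of 0.13. Without a filter (13.5% and 5.69%) 5 members were higher (4 sterol, 1 fatty acid or glycerolipid) and 1 lower (0 sterol), with medians of 0.15, 0.74 for the sterol branch and 0.082 for the others. At a minimum of 5 FPKM (11.7% and 13.9%) the medians were -0.38, -0.0034 and -0.47, with 2 lower in the fatty acid and glycerolipid branches. Upper-quartile scaling (10.7% and 11.9%) gave 2 higher members, 1 higher and 2 lower in the fatty acid and glycerolipid branches, and a sterol median of 0.16. TPM (5.59% and 9.51%) gave 0 higher members, 0 of them sterol, 2 lower in the fatty acid and glycerolipid branches and a sterol median of 0.083. The most abundant transcript (12.9% and 13.4%) gave 0 higher members, 0 higher and 2 lower in the sterol branch (Acat2 and Fdps) and a sterol median of -0.17. Matched transcripts alone gave a sterol median of 0.081. At 1.5-fold (21.9% and 20.4%) 7 members were higher (5 sterol, 2 fatty acid or glycerolipid) and 6 lower (3 fatty acid or glycerolipid), near those shares of 33, and at 4-fold (1.495% and 3.87%) 0 were higher or lower. The causes of these differences were not tested.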
